A study of Mus musculus with 7 samples.

Results

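The genes described here are 10 growth genes of the mouse that are imprinted or belong to the insulin-like growth factor (IGF) system: *H19*, *Igf2*, *Igf1*, *Igf1r*, *Igf2r*, *Dlk1*, *Meg3*, *Cdkn1c*, *Peg3* and *Mest*. All 10 were found by symbol among the 47729 gene identifiers of the deposited count table, each with a single row. RNA of whole aorta was sequenced from mice labelled wild type (WT, 4 libraries) and from mice labelled as lacking *Mmp19*, a secreted matrix metalloproteinase (KO, 3 libraries, also written Mmp19-/- by the submitters). The labels give no treatment, while strain, age, the design of the allele and whether each library came from a separate mouse are not stated in them, so SDs measure the spread between these libraries. The group of genes was taken up because *H19* was at a higher level in every KO library than in WT. The differences between KO and WT are therefore given for these genes as a description. The calls that the fits over all genes made among them are given once, beside the share called over all genes, and nothing is read from them.

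Imprinted genes are expressed mainly from the copy inherited from 1 parent, and many of them act on fetal growth. *H19*, a long noncoding RNA expressed from the maternal copy, and *Igf2*, a growth factor expressed from the paternal copy, are neighbours that share enhancers, and binding of CTCF between them decides which of them the enhancers reach. IGF-I and IGF-II act through the IGF type 1 receptor, whereas the IGF type 2 receptor takes up IGF-II for breakdown. In the vessel wall IGF signalling is known to favour growth and survival of smooth muscle cells, and *H19* is known as a transcript of fetal arteries that returns after injury.

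*H19* is also the host of a microRNA, and other members carry microRNAs within their gene bodies on the same strand. The mature sequences of those in *H19*, *Igf2* and *Mest* are shown because they are products of these transcripts that a count per gene does not resolve. They are RefSeq sequences on GRCm38.p6, 5′ to 3′, with the seed (bases 2 to 8) in capitals.
miR-675-5p, within *H19*: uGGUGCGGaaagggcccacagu
miR-675-3p, within *H19*: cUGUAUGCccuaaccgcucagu
miR-483-5p, within *Igf2*: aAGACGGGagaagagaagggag
miR-483-3p, within *Igf2*: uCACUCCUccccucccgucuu
miR-335-5p, within *Mest*: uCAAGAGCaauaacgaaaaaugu
miR-335-3p, within *Mest*: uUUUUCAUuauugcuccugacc
No seed was shared between these microRNAs. The miR-675 hairpin (chromosome 7, 142577064 to 142577147) lay within an exon in 3 of 7 annotated *H19* transcripts, while those of miR-483 and miR-335 lay in an exon of 0 of 9 *Igf2* and 0 of 11 *Mest* transcripts. The libraries were made with an mRNA kit, per the labels, so mature microRNAs were not measured. The row of the table for the *Mir675* gene held a count of 1 in each WT library and in KO replicate 2, of 13 in KO replicate 1 and of 2 in KO replicate 3. *Mir770* and *Mir1906-1*, within *Meg3*, held a count of exactly 1 in every library, so a count of 1 in such a row is not read as detection.

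The libraries held totals of 68151472 to 76926790 estimated counts. *Mmp19* was still counted in KO, at 25.5, 12 and 15.9 CPM (counts relative to the library total, scaled between libraries) in KO replicates 1, 2 and 3 against 20.7 to 34.7 CPM in WT. KO replicate 1 thus lay within the WT range. As the design of the allele is not stated, the genotype labels cannot be checked by the count of this gene. Markers of smooth muscle were abundant, as 10 genes summed to 19180 to 21200 CPM in WT and to 3777, 14450 and 7626 CPM in KO replicates 1, 2 and 3. KO replicate 1 stood apart, since 56.0% of all 19188 tested genes had their highest or their lowest value of the 7 libraries in it, against 16.1% to 32.3% for any other library. WT replicate 3 held transcripts of sympathetic neurons. Of 10 such genes, listed after their values had been seen, the summed level was 1762 CPM in it and as low as 14.9 CPM in another WT library, and 18.5, 23.2 and 135.5 CPM in KO replicates 1, 2 and 3. In whole tissue, fewer cells of a type and less RNA per cell cannot be told apart.

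**Figure D1:**
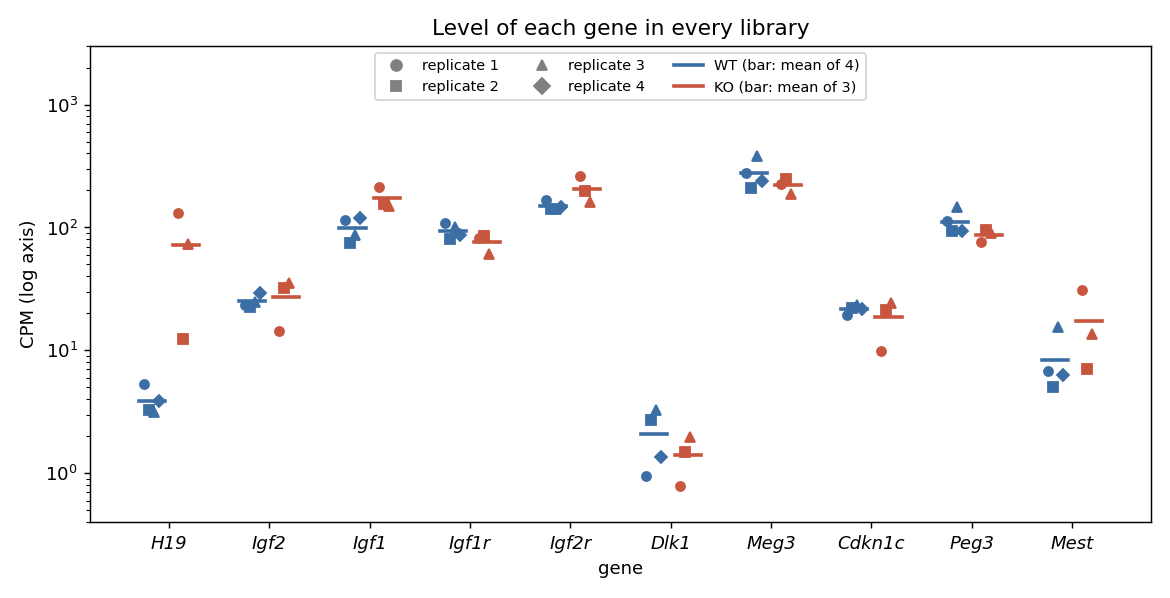
CPM (log axis) of each of the 10 genes in the 4 WT and 3 KO libraries, with the replicate shown by the symbol and the group mean by a bar. *H19* and *Igf1* are the genes in which all KO points lie above all WT points, and the KO points of *H19* spread from 12.3 to 131 CPM.

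*H19* (chromosome 7, 142575529 to 142578143, minus strand, GRCm38, a long intergenic noncoding RNA in the annotation) read 5.28, 3.30, 3.14 and 3.91 CPM in WT replicates 1 to 4. In KO replicates 1, 2 and 3 it read 131, 12.3 and 73.4 CPM. Every KO library thus lay above every WT library, which is what the gene was chosen for, and the KO libraries differed more from each other than the WT libraries did. KO averaged 72.2 ± 59.4 CPM (SD, n = 3) against a WT mean of 3.91 ± 0.975 CPM (SD, n = 4), an 18.5-fold ratio. The log2 fold change was 4.21 (SE 0.70). Leaving out KO replicate 1 gave 3.45, and leaving out KO replicate 2 gave 4.77. The deposited counts behind these values were 219 to 337 in WT and 10780, 861 and 5670 in KO replicates 1, 2 and 3, so the WT level was not limited by a handful of counts.

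Several groups of other transcripts ordered the KO libraries as *H19* did. So did the main axis of variation over all tested genes (first principal component of log2 CPM, 38.7% of the variance). On it KO replicates 1, 2 and 3 lay at 130.9, 8.92 and 35.6 and WT libraries at -78.9 to -28.9. The order is therefore not particular to *H19* or to the groups named here. Medians over 10 macrophage markers deviated from the WT mean by 2.77, 0.75 and 1.80 on the log2 scale in KO replicates 1, 2 and 3, and those over 10 cell division genes by 3.12, 0.59 and 1.18. Smooth muscle markers deviated by -2.22, -0.45 and -1.37. Summed levels of the macrophage markers were 309.3 to 537 CPM in WT and 3793, 682.4 and 1230 CPM in KO, with all 10 tested and none at 0 in any library. Skeletal muscle, a tissue in which *H19* stays expressed after birth, had 8 of 10 markers tested. They summed to 6.91 to 11.3 CPM in WT and to 27.7, 21.5 and 210.7 CPM in KO replicates 1, 2 and 3. *Ckm* gave 15.98 and 17.46 CPM of the sums in KO replicates 1 and 2, and *Acta1* 8.605 CPM in KO replicate 1. Medians over these markers deviated by 0.43, 0.16 and 5.31 on the log2 scale in KO replicates 1, 2 and 3. In WT libraries they deviated by -0.22 to 0.44, so only KO replicate 3 lay outside the WT range. The master regulator of skeletal muscle, *Myod1*, had a count of 0 in 6 libraries and of 4 in KO replicate 3. Neutrophil markers, 10 of 10 tested, summed to 11.6 to 27.8 CPM in WT and to 482.9, 18.4 and 66.4 CPM in KO. *Csf3r* and *Mmp9* gave 173 and 146 CPM of the sum in KO replicate 1. The list was not uniform, as 8 genes had a log2 fold change above 0 (*Ltf* only 0.10), and *Ngp* (-1.58) and *Camp* (-0.54) had one below. Cardiac muscle markers, 9 of 10 tested, summed to 92.1 to 164.4 CPM in WT and to 697.6, 1318 and 40.7 CPM in KO, an order unlike that of *H19*. The skeletal muscle level was likewise highest in KO replicate 3 and *H19* in KO replicate 1. The part of these cells in the level of *H19* was not tested.

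**Figure D2:**
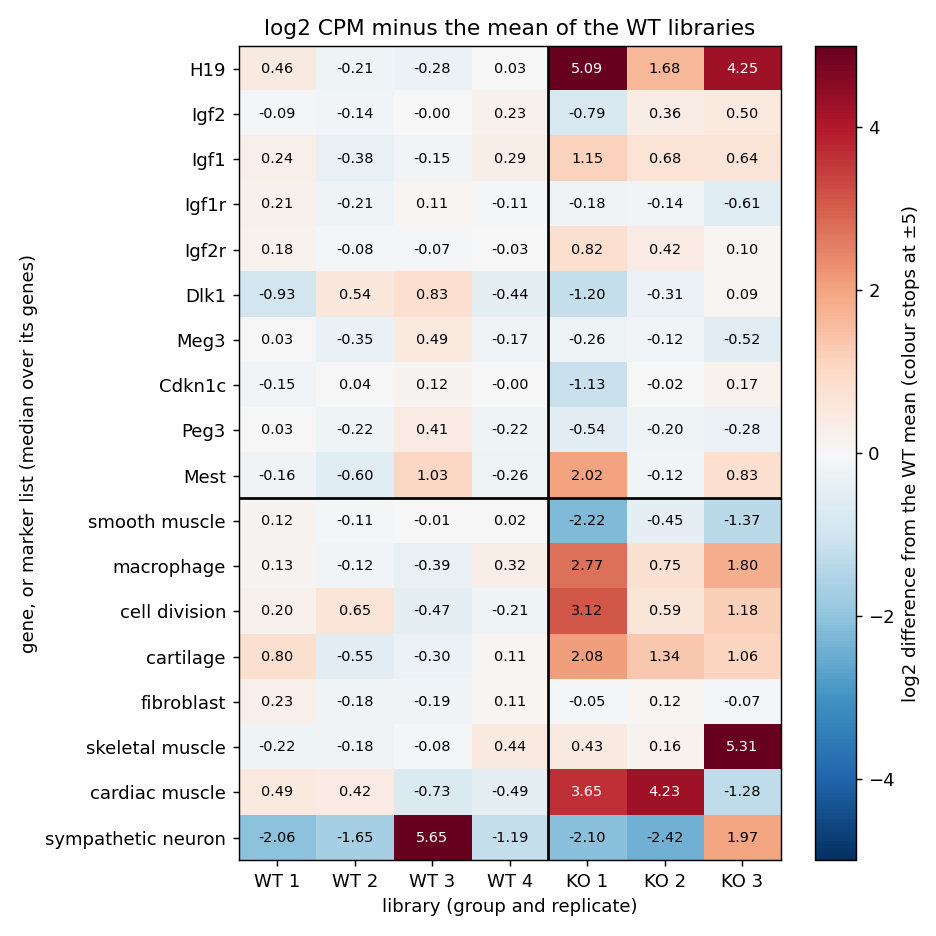
Difference of log2 CPM from the mean of the WT libraries for each gene (upper rows) and the median over the genes of marker lists (lower rows), by library. *H19* reads 5.09, 1.68 and 4.25 in KO replicates 1, 2 and 3, while *Igf2* reads -0.79, 0.36 and 0.50.

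The ligand *Igf2* (chromosome 7, 142650766 to 142666816, minus strand), which encodes the fetal growth factor IGF-II, did not follow *H19*. It read 23.4, 22.6, 24.9 and 29.2 CPM in WT and 14.4, 31.9 and 35.3 CPM in KO replicates 1, 2 and 3. The KO library with the most *H19* was thus the lowest of all 7 in *Igf2*, and the other two KO libraries were the highest. KO averaged 27.2 ± 11.2 CPM (SD, n = 3) against a WT mean of 25.0 ± 2.92 CPM (SD, n = 4), with a log2 fold change of 0.12 (SE 0.29) that was 0.42 without KO replicate 1 and -0.11 without KO replicate 3. Per kilobase of annotated exon, *H19* stood at 0.294 to 0.525 times the level of *Igf2* in WT and at 21.1, 0.896 and 4.84 times in KO replicates 1, 2 and 3. The order of the 2 neighbours was therefore *Igf2* above *H19* in all WT libraries and in KO replicate 2, and *H19* above *Igf2* in KO replicates 1 and 3.

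The ligand *Igf1* (chromosome 10, 87858265 to 87937042), which encodes the IGF-I of postnatal growth, was the other gene whose groups did not overlap. It read 114, 74.3, 86.8 and 119 CPM in WT and 214, 155 and 151 CPM in KO replicates 1, 2 and 3. The KO libraries lay closer together than for *H19*, and KO replicate 2 was not apart from KO replicate 3. KO averaged 173 ± 35.2 CPM (SD, n = 3) against a WT mean of 98.5 ± 21.4 CPM (SD, n = 4). The log2 fold change was 0.82 (SE 0.21), and 0.63 without KO replicate 1. Macrophages and fibroblasts are both known to make *Igf1*. The fibroblast markers, 10 of 10 tested, had medians within 0.12 of the WT mean on the log2 scale in KO and summed to 6482 to 11160 CPM in WT and 12680, 8874 and 8398 CPM in KO. The list was not uniform, as 5 genes had a log2 fold change above 0 and 5 below, from *Lum* (1.27, without overlap) to *Pi16* (-0.64). *Col1a1* alone gave 9724 CPM of the sum in KO replicate 1. The macrophage sums are given above. Cartilage markers, 10 of 10 tested, summed to 54.9 to 138.8 CPM in WT and to 576, 227.2 and 264.6 CPM in KO, with 5 of the 10 higher without overlap and the others, such as *Chad* (log2 fold change -0.57), overlapping. The part of these cell types in the level of *Igf1* was not tested.

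The receptors are given next, and neither had groups that stood apart. *Igf2r* (chromosome 17, 12682406 to 12769664, minus strand), the receptor that takes up IGF-II, read 168, 141, 142 and 146 CPM in WT and 262, 199 and 160 CPM in KO replicates 1, 2 and 3. KO replicate 3 lay inside the WT range, and the other two KO libraries lay above it. The log2 fold change was 0.47 (SE 0.18) and 0.26 without KO replicate 1. *Igf1r* (chromosome 7, 67952827 to 68233668), the signalling receptor, read 108, 80.4, 101 and 86.7 CPM in WT and 82.5, 84.6 and 61.2 CPM in KO. Its groups overlapped, with KO replicate 3 lowest, and the log2 fold change was -0.30 (SE 0.16), or -0.16 without KO replicate 3. Per kilobase of exon, *Igf1r* stood at 0.316 to 0.391 times the level of *Igf2r* in WT and at 0.175, 0.236 and 0.212 times in KO, ranges that did not overlap. *Airn*, the noncoding RNA transcribed against *Igf2r*, overlaps it on the other strand and read 11.9 to 13.3 CPM in WT and 9.64, 13.5 and 8.91 CPM in KO. The stretch that the 2 genes share runs from position 12741311 to the start of *Igf2r* at 12769664. As no source used here states the strand setting of the counting, reads in such a shared stretch cannot be told apart.

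The upstream sequences of *Igf1* and *Igf2r* are shown because they differ in CpG content, the substrate of the methylation that marks imprinted genes, while both genes read highest in KO replicate 1. Each run holds the 250 bases before a RefSeq start on GRCm38.p6, 5′ to 3′ on the strand of the gene, with CpG in capitals.
*Igf1*, chr10:87860861-87861110: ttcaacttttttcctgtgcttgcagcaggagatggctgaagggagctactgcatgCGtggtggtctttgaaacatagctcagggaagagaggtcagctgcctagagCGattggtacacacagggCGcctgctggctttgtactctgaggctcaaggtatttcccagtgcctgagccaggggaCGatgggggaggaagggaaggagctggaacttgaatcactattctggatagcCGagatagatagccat
*Igf2r*, chr17:12769707-12769956: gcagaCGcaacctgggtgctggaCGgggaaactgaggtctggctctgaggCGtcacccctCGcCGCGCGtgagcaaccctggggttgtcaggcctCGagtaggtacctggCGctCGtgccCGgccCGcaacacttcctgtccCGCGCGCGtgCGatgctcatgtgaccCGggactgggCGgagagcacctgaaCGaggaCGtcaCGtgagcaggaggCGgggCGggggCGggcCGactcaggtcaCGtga
These runs hold 5 and 27 CpG. The *Igf1* run lies inside the gene body given above, whose annotated start is at 87858265. That of *Igf2r* lies before the annotated start of its gene at 12769664, so the places compared are not alike. With the 50 bases after the start included, the windows of 300 bases held 6 CpG for *Igf1* and 34 for *Igf2r*, and 43.6% and 92.3% of 32851 promoter windows held fewer. *Igf1r* had the most among the 14 windows of 8 members, with 48 CpG (98.8% of windows held fewer), and the median over all windows was 7. *H19* and *Cdkn1c* had no window in this table. CpG counts describe the sequence only, as methylation was not measured.

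The 2 transcripts of the *Dlk1*-*Meg3* domain are, like *Igf2* and *H19*, a paternally expressed coding gene and a maternally expressed noncoding RNA. *Meg3* (chromosome 12, 109541001 to 109571726), the noncoding RNA, read 275, 211, 380 and 239 CPM in WT and 226, 247 and 188 CPM in KO replicates 1, 2 and 3. Its groups overlapped, with WT replicate 3 highest. The log2 fold change was -0.33 (SE 0.22), and -0.14 without WT replicate 3. *Dlk1* (chromosome 12, 109452823 to 109463336), a membrane protein that restrains fat cell formation, was the least abundant of the 10, at 0.956, 2.70, 3.30 and 1.36 CPM in WT and 0.790, 1.49 and 1.97 CPM in KO. These levels rest on 61 to 230 deposited counts a library. Its log2 fold change of -0.56 (SE 0.53) was -0.24 without WT replicate 3.

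*Cdkn1c* (chromosome 7, 143458339 to 143461050, minus strand), the inhibitor of cyclin-dependent kinases p57, was the steadiest gene in WT. It read 19.5, 22.3, 23.6 and 21.7 CPM in WT, a coefficient of variation of 7.74%, and 9.93, 21.5 and 24.4 CPM in KO replicates 1, 2 and 3. KO replicate 1 alone left the WT range downward, in the library with the highest level of cell division genes (a sum of 560.3 CPM over 10 genes, against 40.2 to 105.5 CPM in WT). The log2 fold change of -0.23 (SE 0.29) became 0.07 without that library. A link between the level of *Cdkn1c* and that of the cell division genes was not tested. *Peg3* (chromosome 7, 6703892 to 6730431, minus strand), a paternally expressed zinc finger protein, read 112, 94.3, 146 and 93.9 CPM in WT and 75.7, 95.1 and 90.2 CPM in KO. The groups overlapped, and the log2 fold change was -0.36 (SE 0.18), or -0.20 without WT replicate 3.

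*Mest* (chromosome 6, 30723547 to 30748465), a paternally expressed enzyme-like protein of growing mesoderm and fat, was the most variable of the 10 in WT. It read 6.82, 5.00, 15.6 and 6.34 CPM in WT, a coefficient of variation of 57.2%, and 31.0, 7.00 and 13.6 CPM in KO replicates 1, 2 and 3. The groups overlapped, since WT replicate 3 exceeded 2 of the KO libraries. The log2 fold change of 1.03 (SE 0.56) became 0.27 when KO replicate 1 was left out and 1.51 when WT replicate 3 was. *Copg2*, a coat protein gene on the other strand, overlaps *Mest* only from position 30747554 to the end of *Mest*. It was more abundant, at 34.4 to 46.0 CPM in WT and 38.1, 30.4 and 43.0 CPM in KO. Reads in this shared stretch cannot be told apart for the same reason as above. Markers of adipocytes, 10 of 10 tested, summed to 3838 to 6970 CPM in WT and to 2780, 5400 and 7717 CPM in KO. KO replicate 1 was highest in *Mest* and lowest in the sum of these markers. The part of adipocytes in the level of *Mest* was not tested.

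**Figure D3:**
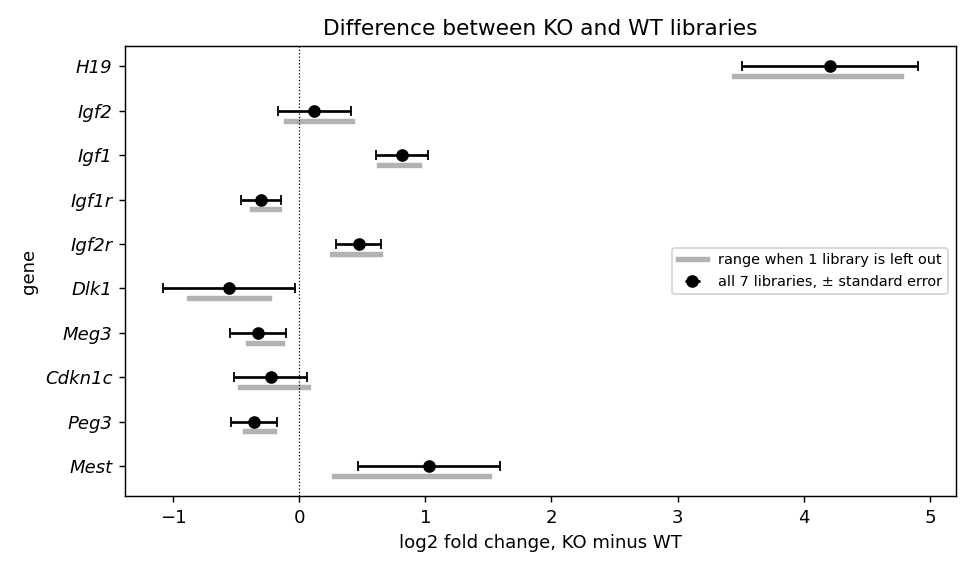
Log2 fold change, KO minus WT, of each gene with its standard error (points and bars) and the range of the same value when 1 library at a time was left out (grey). The range for *H19* runs from 3.45 to 4.77, and those of *Igf2* and *Cdkn1c* cross 0.

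Across the 10 genes, 5 had a log2 fold change above 0 and 5 below, and the median was -0.05 against -0.03 over all genes tested. Groups did not overlap for 2 of 10, *H19* and *Igf1*, both higher in KO, and for 16.7% of all genes (8.17% higher and 8.56% lower). edgeR's quasi-likelihood test called 0 of the 10 at an adjusted p under 0.05, against 0.0156% of all genes. Without KO replicate 2 it called 1, *H19*, in a fit that called 1029 of 19961 genes. With all libraries the test called 3 of the 10 at an unadjusted p under 0.05, all higher, against 17.2% of all genes (9.92% higher and 7.27% lower). DESeq2 called 2, *H19* and *Igf1*, both higher, against 8.31% of the genes to which it gave an adjusted p (5.3% higher and 3.01% lower), and limma-voom called 0, against 0.0365%. The genes were chosen on this contrast, so nothing is read from these counts.

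Single libraries set the extremes of most members. KO replicate 1 held the highest value of *H19*, *Igf1*, *Igf2r* and *Mest* and the lowest value of *Igf2*, *Dlk1*, *Cdkn1c* and *Peg3*, which makes 8 of 10, where the share among all tested genes was 56.0%. WT replicate 3, the library with sympathetic neuron transcripts, was the highest WT library for 5 of 10, *Dlk1*, *Meg3*, *Cdkn1c*, *Peg3* and *Mest*, and for 25.8% of all genes tested. The part of sympathetic neurons in their WT levels was not tested. Over the WT libraries, *Igf2r* (8.57%), *Cdkn1c* (7.74%) and *Igf2* (11.7%) had coefficients of variation below the median of 13.4% over the 13546 genes with a mean of 2 CPM or more, *Igf1r* (13.5%) was next to it, and the other 6 exceeded it.

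Per kilobase of exon, the order of the median levels in WT was *Igf2r* (15.5), *Meg3* (14.2), *Cdkn1c* (10.8), *Igf1* (10.2), *Peg3* (7.75), *Igf1r* (5.57), *Igf2* (4.22), *Mest* (1.67), *H19* (1.46) and *Dlk1* (0.359), all in CPM per kilobase. Neighbours whose WT ranges did not overlap were *Meg3* and *Cdkn1c*, *Peg3* and *Igf1r*, *Igf2* and *Mest*, and *H19* and *Dlk1*. The other neighbours in this order did not differ beyond their spread. In KO the median of *H19* was 29.8 CPM per kilobase (range 4.997 to 53.3), which moved it from rank 9 to rank 1. *Igf2r* was next with 21.4 (range 17.2 to 28.2), and these ranges overlapped.

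Position along the chromosome was not used in choosing the genes. Of 28 tested genes that start within 1000 kb of *H19*, besides *H19* itself and with *Igf2* and *Cdkn1c* among them, 14 lay higher and 14 lower in KO, and the median log2 fold change was 0.00. Groups did not overlap for 4 of them, all higher in KO (8.17% of all genes were). edgeR called 0 of the 28 (0.0156% of all genes), with 6 at an unadjusted p under 0.05 (17.2%), and DESeq2 called 2, *Tnni2* and *4933417O13Rik* (8.31%). *Syt8*, a synaptotagmin 143.3 kb away named after its values were seen, read at most 0.158 CPM in WT and 2.22, 0.171 and 0.311 CPM in KO replicates 1, 2 and 3 (log2 fold change 4.46, SE 1.55, edgeR adjusted p = 0.225). It lay below the mean of 2 CPM used for naming, which the genes of the fast skeletal muscle troponins below passed through KO replicate 3. *Tnni2*, 136 kb away, read 0.0704 to 0.258 CPM in WT and 0.851, 0.357 and 14.4 CPM in KO replicates 1, 2 and 3 (log2 fold change 4.68, SE 1.27, edgeR adjusted p = 0.181, and 0.0440 without KO replicate 2). The fit without KO replicate 2 called 1029 of 19961 genes. *Tnnt3*, 79.3 kb away, read 1.09 to 1.70 CPM in WT and 1.02, 1.16 and 29.0 CPM in KO, so that it was high in KO replicate 3 only and its log2 fold change, 2.92 with an SE of 1.12 (edgeR adjusted p = 0.248), turned to -0.33 without that library. Both troponin genes were thus highest in KO replicate 3, whereas *H19* was highest in KO replicate 1. *Lsp1*, a leukocyte protein, read 38.5 to 52.5 CPM in WT and 135, 59.0 and 57.9 CPM in KO (edgeR adjusted p = 0.228), and *Ctsd*, the lysosomal protease cathepsin D, 596 to 692 CPM in WT and 1728, 692 and 915 CPM in KO (edgeR adjusted p = 0.253).

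On the other side of *Igf2* lies the imprinted cluster of *Kcnq1ot1*, a noncoding RNA that silences its neighbours on the paternal copy. It read 14.6 to 19.7 CPM in WT and 12, 18.6 and 13.1 CPM in KO (log2 fold change -0.28, SE 0.20, edgeR adjusted p = 0.516). *Th*, tyrosine hydroxylase of sympathetic neurons, read 212 CPM in WT replicate 3 and at most 0.338 CPM in the other WT libraries. Within 1000 kb of *Meg3*, 15 other genes were tested, *Dlk1* among them, 7 with a positive and 8 with a negative log2 fold change. Their median was -0.23, against -0.03 over all genes tested. Of these 15, edgeR called 0 (0.0156% of all genes), with 1 at an unadjusted p under 0.05 (17.2%), and DESeq2 called 1, *Slc25a29* (8.31%). The maternally expressed noncoding RNA *Rian*, downstream of *Meg3*, read 164, 116, 184 and 166 CPM in WT and 197, 171 and 136 CPM in KO, and *Mirg* 4.52 to 6.75 CPM in WT and 8.17, 8.38 and 5.24 CPM in KO (edgeR adjusted p = 0.841 and 0.537).

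**Figure D4:**
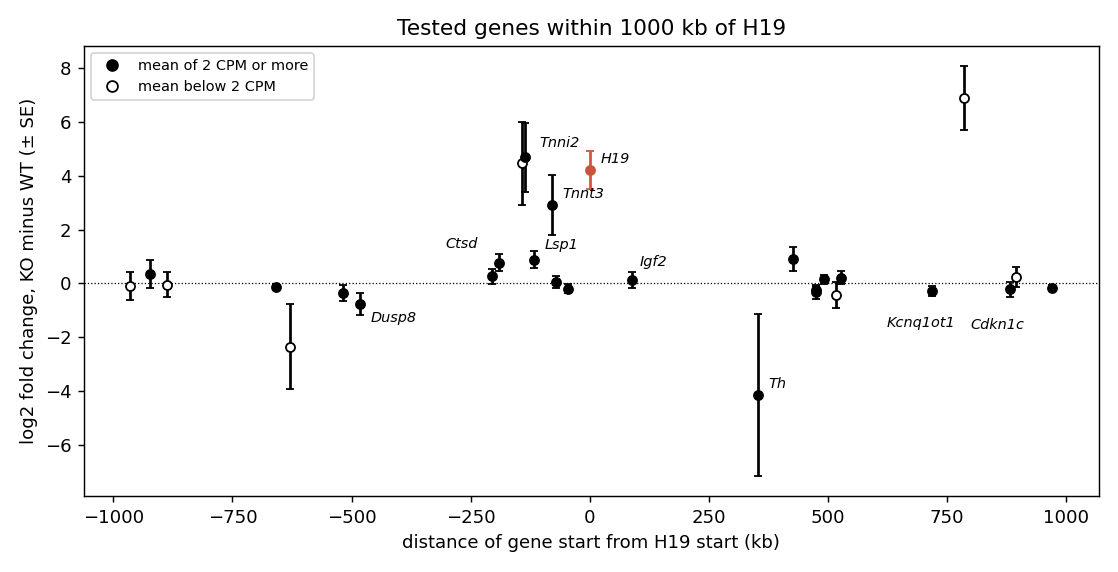
Log2 fold change, KO minus WT, with its standard error for tested genes within 1000 kb of the *H19* start, against the distance of their starts in kb; open points have a mean below 2 CPM. *H19* (4.21), *Tnni2* (4.68) and *Tnnt3* (2.92) stand above the other filled points, and *Igf2* (0.12) lies near 0.

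The wider IGF and insulin pathway held no gene that passed the threshold of edgeR's test. Of 33 listed genes, all tested, edgeR called 0 (3 higher and 2 lower at an unadjusted p under 0.05, where all genes gave 9.92% and 7.27%), DESeq2 called 1 higher, *Pappa* (5.3% of all genes), and the list had a median of -0.12. When KO replicate 2 was left out, edgeR called 1 higher and 1 lower, beside 667 higher and 362 lower among all 19961 genes of that fit. *Pappa*, the protease that frees IGF from its binding proteins, read 2.35 to 5.34 CPM in WT and 19.6, 5.21 and 7.47 CPM in KO (log2 fold change 1.63, SE 0.50, edgeR adjusted p = 0.194). *Ghr*, the growth hormone receptor that drives *Igf1* in liver, read 147 to 168 CPM in WT and 221, 167 and 231 CPM in KO (edgeR adjusted p = 0.215, and 0.0457 without KO replicate 2). *Grb14*, an adaptor that inhibits the insulin receptor, read 36.3 to 46.2 CPM in WT and 17.8, 27.8 and 36.9 CPM in KO (edgeR adjusted p = 0.248). *Rptor*, a subunit of the mTOR complex 1, read 55.6 to 67.4 CPM in WT and 49.2, 46.2 and 49.6 CPM in KO, without overlap (log2 fold change -0.30, SE 0.10, edgeR adjusted p = 0.225).

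Of 7 IGF-binding proteins, 6 were tested and edgeR called 0 (2 higher and 1 lower at an unadjusted p under 0.05, against 9.92% and 7.27% of all genes), while DESeq2 called *Igfbp3* higher and *Igfbp5* lower (5.3% and 3.01% of all genes). *Igfbp3* read 17.8 to 28.2 CPM in WT and 45.2, 29.8 and 46.8 CPM in KO, and *Igfbp5* read 608 to 781 CPM in WT and 278, 555 and 346 CPM in KO, each without overlap (edgeR adjusted p = 0.170 and 0.201). Without KO replicate 2 both were called by edgeR, with adjusted p = 0.0365 and 0.0290. That fit called 667 higher and 362 lower among 19961 genes. *Igfbp2* read 18.7 to 28.7 CPM in WT and 24.3, 82.7 and 36.7 CPM in KO, so that it was highest in KO replicate 2 (edgeR adjusted p = 0.230). *Igfbp4* read 355 to 457 CPM in WT and 612, 436 and 452 CPM in KO (edgeR adjusted p = 0.358). The groups of these last genes overlapped.

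Most of the other imprinted genes had a lower estimate in KO. Of 49 listed genes 39 were tested, 14 with a log2 fold change above 0 and 25 with one below, and the median was -0.24 against -0.03 over all genes, of which 46.9% had a log2 fold change above 0. edgeR called 0 (3 higher and 5 lower at an unadjusted p under 0.05, beside 9.92% and 7.27% of all genes) and DESeq2 1 lower, *Peg13* (3.01% of all genes). Without KO replicate 2 edgeR called 2 higher and 1 lower, beside 667 higher and 362 lower among all 19961 genes of that fit. The median of the list was -0.387 without KO replicate 2 and -0.136 without KO replicate 1. *Plagl1*, a zinc finger protein known to activate other imprinted genes, read 13.5 to 18.6 CPM in WT and 34.8, 16 and 33.0 CPM in KO, and the middle value here is within the WT range (log2 fold change 0.81, SE 0.27, edgeR adjusted p = 0.215, and 0.0262 without KO replicate 2). *Grb10*, an adaptor that restrains IGF and insulin receptors, read 125, 69.7, 91.6 and 87.1 CPM in WT and 193, 114 and 134 CPM in KO (log2 fold change 0.66, SE 0.24, edgeR adjusted p = 0.237). *Peg13*, a noncoding RNA, read 74.3 to 94.0 CPM in WT and 39.0, 59.9 and 56.5 CPM in KO, without overlap (log2 fold change -0.73, SE 0.17, edgeR adjusted p = 0.170). *Osbpl5*, a lipid transfer protein, read 74.5 to 98.1 CPM in WT and 46.1, 76.0 and 52.9 CPM in KO (edgeR adjusted p = 0.201, and 0.0382 without KO replicate 2).

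Factors that keep or erase imprints were compared as well. Of 18 genes, all tested, edgeR called 0 (2 higher and 1 lower at an unadjusted p under 0.05, shares near the 9.92% and 7.27% of all genes) and DESeq2 1 higher (5.3% of all genes), with a median log2 fold change of 0.08. The gene that DESeq2 called was *Zfp57*, a zinc finger protein that holds methylation at imprinted regions. It read 5.16, 3.55, 5.38 and 5.51 CPM in WT and 10.8, 9.24 and 9.15 CPM in KO, without overlap (log2 fold change 0.99, SE 0.21, edgeR adjusted p = 0.166, DESeq2 adjusted p = 0.000476). Its KO libraries lay closer together than those of *H19*. *Tet1*, which oxidises methylated cytosine, read 16.9, 23.4, 36.8 and 22.9 CPM in WT and 4.91, 16.6 and 10.8 CPM in KO (log2 fold change -1.22, SE 0.43, edgeR adjusted p = 0.227). *Uhrf1*, which guides methylation to newly copied DNA, read 4.39 to 11.8 CPM in WT and 37.1, 8.74 and 12.3 CPM in KO, with KO replicate 2 inside the WT range (edgeR adjusted p = 0.275). *Rad21*, a cohesin subunit, read 123 to 131 CPM in WT and 163, 134 and 143 CPM in KO, without overlap (log2 fold change 0.23, SE 0.10, edgeR adjusted p = 0.318). *Ctcf*, named after its values were seen because it acts between *H19* and *Igf2*, read 57.5 to 66.0 CPM in WT and 73.0, 58.9 and 56.8 CPM in KO.

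The genes whose log2 CPM followed *H19* most closely over the 7 libraries were *Cxcl16*, a chemokine (Pearson r = 0.996), *Oasl1* and *Ifi204*, both interferon-induced (r = 0.993 and 0.992), *Trem1*, a myeloid receptor (r = 0.992), and *Abce1*, a ribosome recycling factor (r = 0.990). These values describe the likeness of profiles picked from all genes with a mean of 2 CPM or more. *Cxcl16* read 10.4 to 11.8 CPM in WT and 49.0, 18.6 and 34.7 CPM in KO, and *Trem1* was at 0 in every WT library and at 15.2, 0.343 and 4.86 CPM in KO. Those most like *Igf1* were *Col2a1*, the main cartilage collagen (r = 0.989), *Cilp*, a cartilage matrix protein (r = 0.986), and *Piezo2*, a mechanically gated channel (r = 0.980). *Cilp* read 11.8 to 26.6 CPM in WT and 53.1, 42.5 and 34.7 CPM in KO, and *Piezo2* 5.18 to 11.9 CPM in WT and 49.2, 27.2 and 22.5 CPM in KO. The points of these likenesses share their libraries, with KO replicate 1 at the top for each of these 8 genes. *Oasl1*, *Trem1* and *Col2a1* read at most 1.76, 0 and 1.33 CPM in WT, so they passed the mean of 2 CPM only through KO. Nothing is therefore read from their r with genes that are higher in KO.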

How the data were processed

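Per the labels' protocols, 2 µg of Trizol-extracted RNA of whole mouse aorta went into each library, prepared with a SMARTER mRNA kit. What the authors deposited is a single table of estimated counts, whole numbers without scaling between libraries, with GRCm38 and mm10 named in the submitters' processing notes. The sources used here name no aligner, counting tool, annotation release or strand setting. Among low values, multiples of 4 are more frequent than the values next to them, so the deposited counts are not taken as single reads. All 7 columns were used, and 47224 of 47729 identifiers matched a symbol. Positions and exon lengths come from GENCODE M21.

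Genes were filtered with filterByExpr, the 10 members being kept regardless, scaled by TMM and tested with edgeR 4.0.16 (glmQLFit, glmQLFTest) in R 4.3.3, with Benjamini-Hochberg adjustment over 19188 genes and a threshold of 0.05. CPM use the TMM factors. SEs of log2 fold changes are their size divided by the square root of the quasi-likelihood F. Deviations use log2 CPM with a prior count of 2. Members, lists and tests were chosen with earlier results of these data known. Named genes are the members, the 4 genes with the smallest p of each pathway list, genes within 1000 kb of *H19* or *Meg3* of at least 2 CPM on average, and the 5 and 3 genes with profiles most like *H19* and *Igf1*. The procedure was tested on simulated data. No pair of libraries was a duplicate (lowest mean chi-square per gene 21.1, counts divided by 4). Alternatives were other scalings and filters, DESeq2 1.42.0, limma-voom (limma 3.58.1), a replicate block, division by 4 and leaving out each library.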

Additional observations from a re-analysis of the deposited data

Results flagged for a closer look

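Among 64 named genes, 2 had a WT library far from the other WT libraries, and none of the 10 growth genes did; chance flags about 1 in 20 groups. *Th* read 211.9 CPM in WT replicate 3. *Tnni2* read 0.0704 CPM in WT replicate 2, below the other WT libraries, at a level where few counts decide the value.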

How the results depend on the processing

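The sign of the log2 fold change stayed for *H19*, *Igf1*, *Igf1r*, *Igf2r*, *Dlk1*, *Meg3*, *Peg3* and *Mest* under every alternative run. For *Dlk1*, however, limma-voom gave only -0.02, where the main fit gave -0.556. *Cdkn1c* changed sign with limma-voom (0.001) and ranged from -0.469 to 0.069 when 1 library was left out, and *Igf2* ranged from -0.105 to 0.42. Among other named genes, *Th* was at 2.077 and *Rian* at -0.058 with limma-voom. Leaving out 1 library gave -9.074 to 4.034 for *Th*, -0.046 to 0.235 for *Rian* and -0.326 to 3.472 for *Tnnt3*. Over all genes, 3 were called higher and 0 lower. The number higher was 0 without a filter on low counts, 7 with 50 counts in at least 3 libraries, 7 with limma-voom, 7 with counts divided by 4 and 998 with DESeq2, which called 566 lower. The cause was not tested. Leaving out 1 library gave 0 to 667 higher and 0 to 362 lower, with the highest counts without KO replicate 2 and 0 without any other library. Of the 10 growth genes DESeq2 called 2 higher, and leaving out 1 library gave 0 to 1. With DESeq2, 1 gene of the IGF and insulin list was higher, 1 IGF-binding protein higher and 1 lower, 1 other imprinted gene lower and 1 imprint maintenance gene higher. Leaving out 1 library gave 0 to 1 higher and 0 to 1 lower in the IGF and insulin list and among IGF-binding proteins, and 0 to 2 higher and 0 to 1 lower among other imprinted genes, whose median ran from -0.387 to -0.136. A replicate block left 0 genes called higher over all genes, with the log2 fold change of *H19* at 3.75. Deviations of same-numbered libraries correlated at 0.054, 0.069 and 0.34 for numbers 1, 2 and 3, and only KO replicate 3 correlated best with its own number. So few values cannot tell whether same-numbered libraries were handled together, and the main fit took the libraries as unpaired. Counts were lowest for *Dlk1*, at 61 to 230 a library.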

Other observations

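*Dio3*, the imprinted deiodinase that inactivates thyroid hormone and lies downstream of *Meg3*, did not pass the filter on low counts. Its deposited counts were 8, 1, 4 and 4 in WT replicates 1 to 4 and 133, 4 and 60 in KO replicates 1, 2 and 3. It was named after its values were seen. *Ascl2*, the imprinted transcription factor near *H19*, also failed the filter, with counts of 4, 8, 0 and 7 in WT and of 37, 0 and 4 in KO. *Usp29*, the paternally expressed neighbour of *Peg3*, had counts of 1, 13, 206 and 0 in WT and of 0, 5 and 9 in KO, so that WT replicate 3 held nearly all of them. *Ddc*, an imprinted gene that also makes dopamine in sympathetic neurons, read 117 CPM in WT replicate 3, at most 0.896 CPM in the other WT libraries and 0.790, 0.514 and 9.67 CPM in KO. *Phlda2*, *Ins2* and *Igfbp1* had a count of 0 in all 7 libraries.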
